A study of Arabis alpina with 18 samples.

Results

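LFY, AP1 and FD are the 3 genes described here, of 34220 genes counted. The species was Arabis alpina, a perennial of the same family as Arabidopsis thaliana. They were chosen by name, through the Arabidopsis loci AT5G61850 for LFY (gene Aa_G61540h1), AT1G69120 for AP1 (Aa_G283230h1) and AT4G35900 for FD (Aa_G514710h1), and each matched 1 row of the count table. All 3 passed the filter on low counts. In Arabidopsis, FD is a bZIP transcription factor of the shoot apex that acts with the mobile florigen protein FT. LFY (LEAFY) is a transcription factor that gives a new primordium its floral fate, and AP1 (APETALA1) is a MADS-domain transcription factor that marks floral meristems. FD with FT and LFY both activate AP1, so the 3 genes are commonly read as steps from the signal to flower to the floral meristem itself.

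Poly(A) RNA was sequenced in 18 libraries, in 6 groups of 3. All plants were of the accession Pajares and were kept in long days. The groups were dissected shoot apices of the pep1-1 mutant and of the eop055 mutant, each at 3 and at 5 weeks of age, and leaves of both mutants at 5 weeks. In Arabis alpina PEP1 is the ortholog of the floral repressor FLC, so the pep1-1 plants used as the comparison group are themselves mutant, and no wild-type plants are among the samples. The gene altered in eop055, and whether eop055 also carries pep1-1, are not named in the labels. Whether the 3 libraries of a group are separate plants is not stated either. The p-values therefore reflect how much these libraries vary, and that variation may be technical.

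The libraries held 7987096 to 14132723 counts assigned to genes. Between libraries of a group the gene counts differed by more than sampling noise in all pairs, with a chi-square per gene of 1.505 to 25.0, and the widest pair was replicates 2 and 3 of eop055 leaves. The deposited tables give an Arabidopsis locus to 1399 genes with 1 count row, and these are genes that the authors listed as changed between the mutants. None of the 6 shoot meristem markers and none of the 8 green leaf markers carries a locus there, so the labelled tissues could not be checked with them. LFY, AP1 and FD themselves have their names from the authors' list of 298 genes higher in eop055 apices at 5 weeks. The difference between the mutants in those apices is therefore described and supports nothing, and comparisons that use the eop055 or the pep1-1 apex libraries at 5 weeks are not independent of it. Values are CPM, gene counts scaled to a common library size, with the TMM correction for library composition. No gene lengths were used, so levels are compared between libraries and not between genes.

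**Figure D1:**
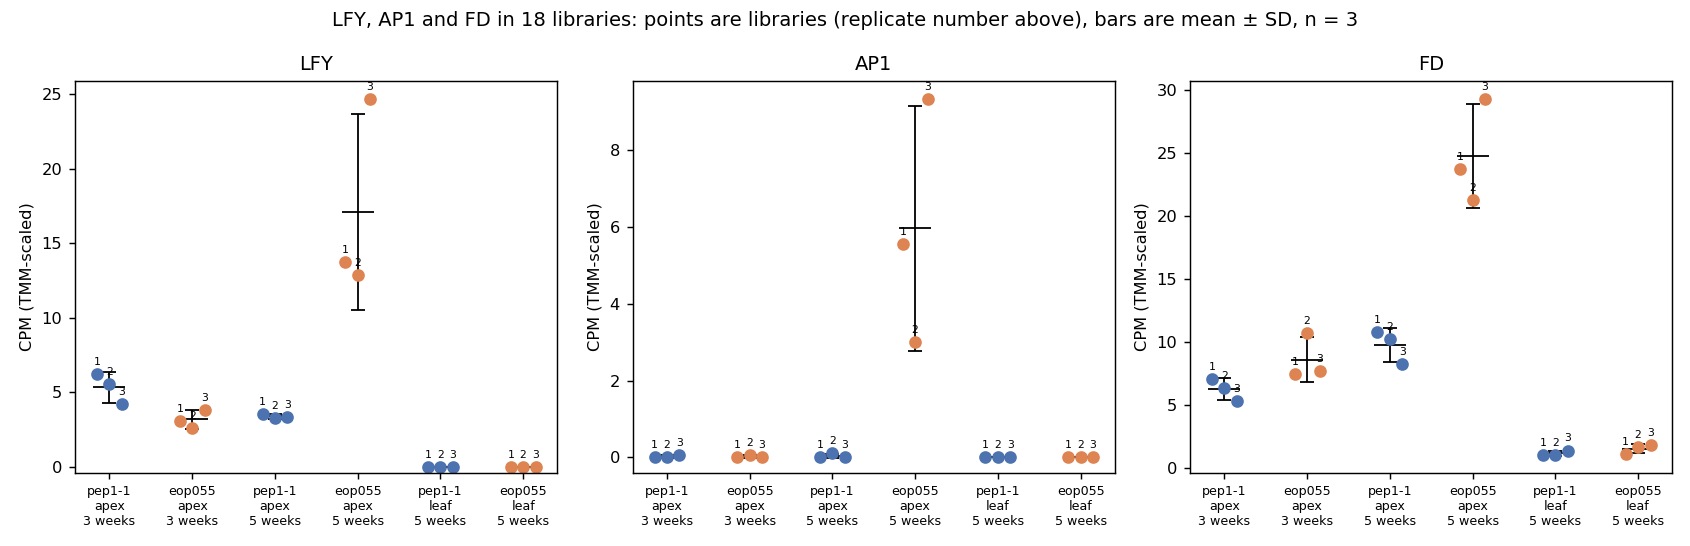
CPM of LFY, AP1 and FD in each of the 18 libraries, by mutant, tissue and age, with 1 point for each library and a bar at the mean of each group. The 3 libraries of eop055 apices at 5 weeks stand above all the others for each gene, at 12.8 to 24.6 CPM for LFY, 3.00 to 9.33 CPM for AP1 and 21.3 to 29.3 CPM for FD.

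FD, the gene that acts first in this order, was read in all 18 libraries. In pep1-1 apices at 3 weeks the libraries gave 7.07, 6.35 and 5.30 CPM of FD. In eop055 apices at 3 weeks they gave 7.42, 10.7 and 7.66 CPM. All 3 eop055 libraries were thus above all 3 pep1-1 libraries, as for 13.6% of the genes tested. The fitted log2 difference was 0.47 ± 0.174 (SE, n = 3 against 3) and did not pass the test (adjusted p = 0.161). Every adjusted p comes from the quasi-likelihood F test of edgeR, adjusted over 21275 genes by Benjamini-Hochberg, unless another tool is named. In that comparison 3.68% of all tested genes passed.

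At 5 weeks FD stood at 10.8, 10.2 and 8.22 CPM in pep1-1 apices and at 23.7, 21.3 and 29.3 CPM in eop055 apices. The lowest eop055 library lay well above the highest pep1-1 library, as for 15.4% of the genes tested. The means were 9.74 ± 1.35 and 24.8 ± 4.11 CPM (SD, n = 3), and the log2 difference was 1.34 ± 0.158. That contrast is the one through which the gene was named, and 7.16% of all tested genes were called higher in it.

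FD rose with age in the apices of both mutants. From 3 to 5 weeks it rose by 0.65 ± 0.174 on the log2 scale in pep1-1 (adjusted p = 0.00458) and by 1.52 ± 0.158 in eop055 (adjusted p = 1.11e-07). The age groups did not overlap in either mutant, as for 25.6% of genes in pep1-1 and 25.7% in eop055 in this direction. The rise in pep1-1 shares the 3 pep1-1 libraries at 5 weeks with the contrast that named the gene. The rise in eop055 shares the eop055 libraries of that contrast, in which FD was listed as higher. Its adjusted p, and that of the change in the mutants' difference below, are therefore descriptions. Age moved many genes, since 18.7% of those tested were called higher at 5 weeks in pep1-1 and 16.5% in eop055. The log2 difference between the mutants was larger at 5 than at 3 weeks by 0.87 ± 0.236 (adjusted p = 0.0174, against 10.6% of genes called in that test, 4.49% with a larger value at 5 weeks). This call was lost when any 1 of 4 libraries was left out: replicate 1 of pep1-1 apices at 3 weeks (adjusted p = 0.0631), replicate 3 of eop055 apices at 3 weeks (0.0537), replicate 3 of pep1-1 apices at 5 weeks (0.0581) or replicate 3 of eop055 apices at 5 weeks (0.0593).

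In leaves FD was low but present, at 1.02, 1.02 and 1.36 CPM in pep1-1 and at 1.095, 1.62 and 1.79 CPM in eop055. The mutants overlapped there, and their log2 difference of 0.40 ± 0.352 did not pass (adjusted p = 0.451, with 26.6% of all genes called). Those calls were 3187 higher and 2474 lower under TMM but 2418 higher and 4519 lower under upper quartile scaling. Relative to apices of the same age FD was lower in leaves by a log2 change of -3.10 ± 0.246 in pep1-1 (adjusted p = 2.81e-11) and -4.04 ± 0.221 in eop055 (adjusted p = 1.41e-14). Leaf and apex differ broadly, and 43% and 44.2% of all genes were called lower in leaves in the same comparisons. The median gene there was itself shifted by -0.12 and -0.14 under TMM, against -0.04 and -0.03 under RLE scaling and -0.27 and -0.40 under upper quartile scaling. The mutants' difference in FD was smaller in leaves than in apices by a log2 value of -0.94 ± 0.393, which did not pass (adjusted p = 0.0940, with 20.1% of all genes called). From low to high the FD groups were leaves of both mutants, pep1-1 apices at 3 weeks, eop055 apices at 3 weeks, pep1-1 apices at 5 weeks and eop055 apices at 5 weeks. Of these neighbours the leaf groups overlapped with each other, as did eop055 apices at 3 weeks with pep1-1 apices at 5 weeks.

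LFY, the gene of floral fate, took a different course. At 3 weeks its libraries read 6.22, 5.53 and 4.19 CPM in pep1-1 apices and 3.06, 2.60 and 3.83 CPM in eop055 apices. Here every eop055 library lay below every pep1-1 library, as for 12.4% of the genes tested. The log2 difference of -0.74 ± 0.268 did not pass the test (adjusted p = 0.159). With the groups fitted alone, without the other 12 libraries, it did (adjusted p = 0.0267).

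At 5 weeks LFY stood at 3.56, 3.27 and 3.32 CPM in pep1-1 apices and at 13.7, 12.8 and 24.6 CPM in eop055 apices. The groups lay far apart, and replicate 3 was well above the other two eop055 libraries. The log2 difference between the mutants was 2.32 ± 0.249 in the contrast that named the gene. RNA was taken from whole dissected apices, so more cells with LFY and more LFY RNA per cell cannot be told apart, and the same holds for AP1 and FD.

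With age LFY rose in eop055 apices by 2.43 ± 0.248 on the log2 scale (adjusted p = 7.24e-07), the rank of 77 from the top among 21275 genes. LFY was named as higher in those libraries at 5 weeks. This p and rank, and those of the change in the mutants' difference below, are therefore descriptions. In pep1-1 apices LFY had a log2 change of -0.64 ± 0.270 that did not pass (adjusted p = 0.0711). All 3 libraries at 5 weeks nevertheless lay below all 3 at 3 weeks, as for 26.5% of the genes. That value passed with the 2 groups fitted alone (adjusted p = 0.0187) and without replicate 3 of pep1-1 apices at 3 weeks (adjusted p = 0.0444). The mutants' log2 difference was larger at 5 than at 3 weeks by 3.07 ± 0.366 (adjusted p = 2.97e-05), and this difference ranked 53 from the top among 21275 genes. The call was kept with each of the 12 apex libraries left out, where the adjusted p was at most 0.000333. LFY thus stood lower in eop055 at 3 weeks and higher at 5 weeks without overlap, as did 486 genes or 2.28% of those tested. These were 18.4% of the 2638 genes lower at 3 weeks and 14.8% of the 3276 genes higher at 5 weeks.

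No read of LFY was counted in any of the 6 leaf libraries. A count of 0 allows up to 0.306 to 0.404 CPM in a single library, and up to 0.103 CPM over the pep1-1 leaves and 0.115 CPM over the eop055 leaves, for counting error only. With a floor of 3 counts over the leaf group, LFY was at least 33.1-fold lower in leaves than in apices of pep1-1 and at least 148-fold lower in eop055. The floor depends on how many leaf libraries are summed, so with 1 leaf library left out the bound went down to 22.0-fold in pep1-1 and to 93.9-fold in eop055. From low to high the LFY groups were the leaves, eop055 apices at 3 weeks, pep1-1 apices at 5 weeks, pep1-1 apices at 3 weeks and eop055 apices at 5 weeks. The eop055 apices at 3 weeks and the pep1-1 apices at 5 weeks overlapped, and the other neighbouring apex groups did not.

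AP1, the marker of floral meristems, was close to absent everywhere except in eop055 apices at 5 weeks. Those 3 libraries held 81, 49 and 142 reads, or 5.56, 3.00 and 9.33 CPM. The pep1-1 apices held 0, 0 and 1 read at 3 weeks and 0, 1 and 0 at 5 weeks, and the eop055 apices at 3 weeks held 0, 1 and 0. All 6 leaf libraries held 0. A single read in a group of 3 libraries is too little to order the low groups.

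Within eop055 apices the ratio of summed AP1 reads per effective library size, 5 over 3 weeks, was 248, with an exact 95% counting interval of 44.1 to 9829 and an adjusted p of 2.66e-07. The ratio of eop055 to pep1-1 at 5 weeks, the contrast that named the gene, was 219.6 (39.1 to 8706). AP1 passed the filter on low counts only through the eop055 apices at 5 weeks, the group in which it was named as higher. The adjusted p of its rise with age is therefore a description. Both ratios rest on 1 read in the lower group. Without replicate 2 of eop055 apices at 3 weeks, which holds that read, the rise with age was at least 54.0-fold, and it was 161 without replicate 1. Without replicate 2 of pep1-1 apices at 5 weeks the mutants differed by at least 53.4-fold, and the ratio was 127 without replicate 1. No fold is given at 3 weeks or for pep1-1 with age, since both groups held 1 read. In eop055 at 5 weeks AP1 was at least 51.2-fold lower in leaves than in apices, or at least 32.5-fold with 1 leaf library left out. The change of the mutants' difference with age did not pass for AP1 (adjusted p = 0.210), and DESeq2 gave an adjusted p of 0.0070.

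**Figure D2:**
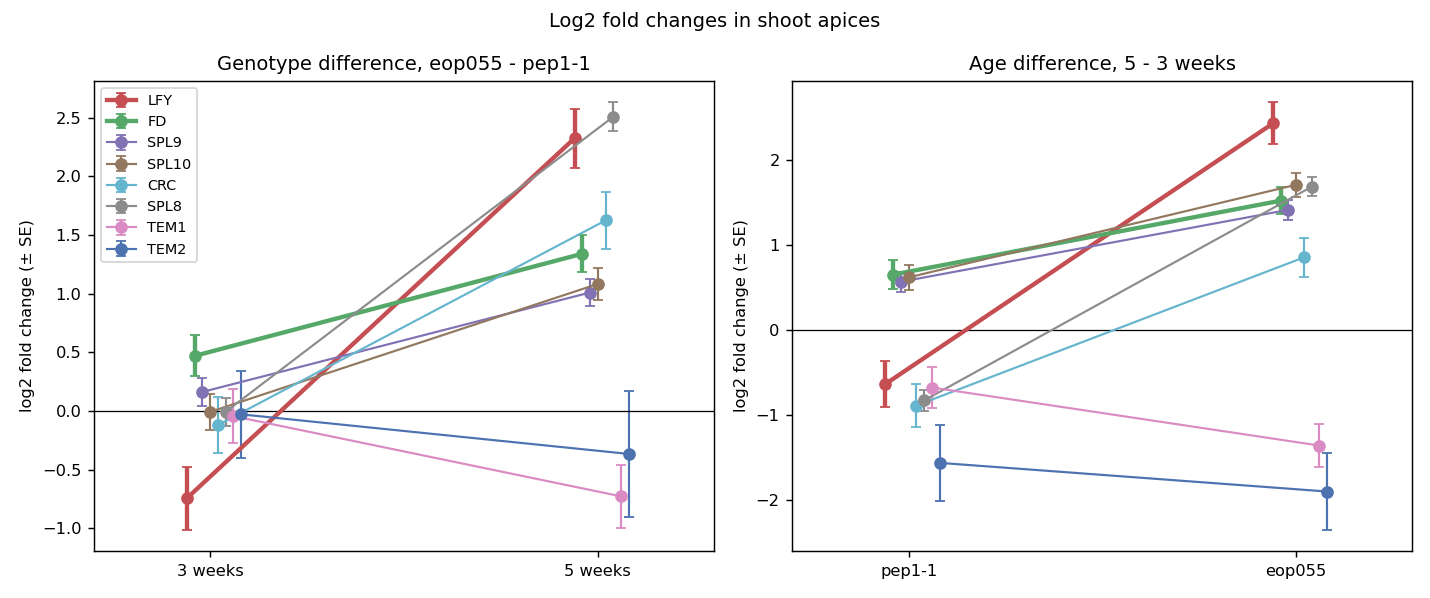
Log2 fold changes (± SE) in apices, eop055 over pep1-1 at each age on the left and 5 over 3 weeks in each mutant on the right, for LFY, FD and the 6 listed genes with at least 100 counts in each of the 4 apex groups. LFY runs from -0.74 at 3 weeks to 2.32 at 5 weeks on the left, and FD from 0.47 to 1.34.

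The genes around LFY, AP1 and FD were taken from lists of known Arabidopsis regulators, and a list gene could be read only where the deposited tables name it. That held for 0 of 6 genes of florigen and its antagonists, 4 of 22 activators, 2 of 13 repressors and 10 of 16 downstream genes of flower primordia. All of these are named because the authors listed them as changed between the mutants. The counts and p-values given for them below are therefore descriptions of a selected set.

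The 4 activators were SPL4, SPL5, SPL9 and SPL10, transcription factors of the age pathway that act upstream of LFY and AP1. At 3 weeks 1 of 4 was higher in eop055, which was SPL5 at 2.71 ± 0.579 against 0.907 ± 0.121 CPM (adjusted p = 0.0182, lost when any 1 of 5 of the 6 libraries was left out), against 2.58% of all genes called higher. All 4 rose with age in pep1-1 apices, with a median log2 change of 1.15 against 0.01 over all genes tested. SPL5 rose by 1.99 ± 0.355, SPL4 by 1.69 ± 0.524, SPL10 by 0.62 ± 0.149 and SPL9 by 0.57 ± 0.118. SPL4 was not called without replicate 1 or 2 of pep1-1 apices at 3 weeks or replicate 1 at 5 weeks. In eop055 all 4 rose too, with a median of 2.44, where 16.5% of all genes were called higher. At 5 weeks all 4 were higher in eop055, by log2 differences of 1.01 for SPL9 to 3.28 for SPL5, against 7.16% of all genes. The mutants' difference was larger at 5 than at 3 weeks for SPL5, SPL9 and SPL10, 3 of 4, against 4.49% of all genes. The call of SPL5 was lost without replicate 2 or 3 of the apices of either mutant at 3 weeks, and with only the apex groups in the fit. FD shares with these 4 genes that it rose with age in both mutants, while LFY did not rise in pep1-1.

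The genes listed as downstream act mostly in floral organ identity and early flower development, and 9 of 10 were tested. Not all were tied to flowers in these data. SPL8 stood at 19.8 CPM in pep1-1 and 19.7 CPM in eop055 apices at 3 weeks, where AP1 held 1 read per group. SEP3 was too low, with a mean of 0.876 ± 0.787 CPM in eop055 apices at 5 weeks and 0 in those of pep1-1. None of the 9 passed between the mutants at 3 weeks, where 3.68% of all genes did. Reads there were few for PI (3 in eop055 and 4 in pep1-1), REM22 (6 and 1) and SEP1 (0 and 1), so the test says little about these. At 5 weeks all 9 were higher in eop055, among them the petal and stamen gene PI at 4.72 ± 2.76 against 0.0212 ± 0.0367 CPM and SPL8 at 63.5 ± 1.75 against 11.1 ± 1.91 CPM. In that comparison 7.16% of all genes were called higher, and RAX1 was not called without replicate 1 of pep1-1 apices at 5 weeks. AGL6, REM22, PI, AP3 and SEP1 passed the filter on low counts only through the eop055 apices at 5 weeks. Those genes could thus be tested only by being high there, and a rise into that group is a description. All 9 rose with age in eop055, against 16.5% of all genes, which were not selected in this way. The count was 7 without replicate 3 of eop055 apices at 5 weeks, where CRC and RAX1 no longer passed, and 8 without replicate 1 of those at 3 weeks, where RAX1 did not pass. In pep1-1 SPL8 fell with age by 0.83 ± 0.126 (adjusted p = 1.63e-05) and the carpel gene CRC by 0.89 ± 0.258 (adjusted p = 0.00980). AGL6 rose there from 0.0923 to 0.355 CPM (adjusted p = 0.0404). These changes share the pep1-1 apices at 5 weeks with the contrast between the mutants at that age. Their p-values are therefore descriptions. CRC was not called without replicate 2 of pep1-1 apices at 3 weeks or replicate 1 at 5 weeks. AGL6 lost its call without either of replicates 2 and 3 at 3 weeks or any replicate at 5 weeks, and also in DESeq2 and with no filter. The mutants' difference was larger at 5 than at 3 weeks for 4 of the 9 downstream genes, SPL8, SEP4, PI and CRC, against 4.49% of all genes, and the other 5 did not pass. It was larger by 2.52 ± 0.170 for SPL8 (adjusted p = 3.82e-09) and by 1.74 ± 0.343 for CRC (adjusted p = 0.00209). These genes are named as changed between the mutants, so both p-values are descriptions. DESeq2 called 7 of the 9. PI lost its call without any 1 of 4 libraries, which were replicate 3 of pep1-1 and replicate 2 of eop055 apices at 3 weeks and replicates 2 and 3 of pep1-1 apices at 5 weeks.

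The repressors TEM1 and TEM2, which hold back flowering in Arabidopsis, moved the other way with age, where 20.3% of all genes were called lower in pep1-1 and 19.4% in eop055. In eop055 apices TEM1 fell by 1.36 ± 0.252 and TEM2 by 1.90 ± 0.448, and in pep1-1 by 0.68 ± 0.243 and 1.56 ± 0.447. Neither call in pep1-1 held without replicate 1 or without replicate 3 of its apices at 5 weeks, and that of TEM1 also failed without replicate 1 or 2 at 3 weeks and with no filter. Neither gene passed between the mutants in apices at 3 weeks, where 3.68% of all genes did. At 5 weeks TEM1 stood at 5.79 ± 0.127 CPM in eop055 and 9.64 ± 1.90 CPM in pep1-1 and did not pass (log2 difference -0.73 ± 0.266, adjusted p = 0.0856), although DESeq2 and a fit of only those groups called it lower. TEM2 did not pass there (adjusted p = 0.736). In leaves both were higher in eop055, TEM2 at 233 ± 119 against 42.8 ± 3.94 CPM (adjusted p = 0.000125), as were 15% of all genes. Both genes are named as changed between the mutants, so this difference and its p are descriptions and support nothing.

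**Figure D3:**
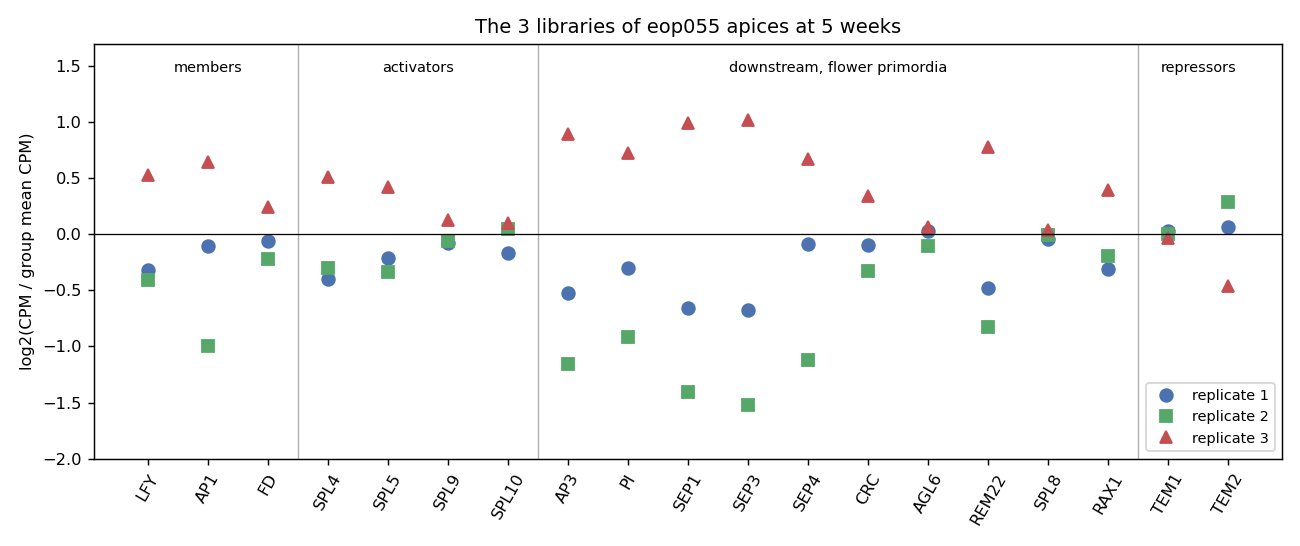
The 3 libraries of eop055 apices at 5 weeks for LFY, AP1, FD and the listed genes, each relative to the mean of its 3 libraries. Replicate 3 is the highest for LFY, AP1 and FD, for 4 of 4 activators and 10 of 10 downstream genes, and for 0 of 2 repressors.

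One library stood out in the group where the 3 genes were high. Replicate 3 of eop055 apices at 5 weeks held the highest level of all 3, at 1.86 times the mean of the other libraries for LFY, 2.18 times for AP1 and 1.302 times for FD. It was also the highest for all 4 activators and all 10 downstream genes. Over all genes tested it was the highest for 34.0%, and over the genes called higher in eop055 at 5 weeks for 36.6%. The summed level of the 5 named flower primordium markers (AP3, PI, SEP1, SEP3 and CRC) was 29.4 CPM there, against 15.4 and 11.5 CPM in replicates 1 and 2. In the other apex libraries that sum was 2.47 to 6.01 CPM with 2 to 4 of the 5 markers at 0, and in leaves it was 0.306 to 0.921 CPM. In those other apex libraries the sum was mostly CRC, which alone gave 6.01 CPM in replicate 2 of pep1-1 at 3 weeks. AP3, PI, SEP1 and SEP3 were each at most 0.408 CPM there. In eop055 apices at 5 weeks CRC was 7.82, 6.66 and 10.6 CPM. The part of flower primordia in the dissected tissue in the levels of LFY, AP1 and FD was not tested. Without replicate 3 the log2 difference between the mutants at 5 weeks was 1.96 for LFY and 1.19 for FD, and the AP1 ratio was 157.

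The spread between libraries differed among the 3 genes. The biological coefficient of variation, fitted over the 18 libraries, was 33.7% for AP1, 19.3% for LFY and 12.9% for FD. The common value over all genes was 9.65%. AP1 was near 0 outside the eop055 apices at 5 weeks and LFY had no read in leaves, so their values rest mostly on the other libraries. Within groups, the SD of LFY was 38.5% of the mean in eop055 apices at 5 weeks and 4.63% in those of pep1-1. As stated above, this variation may be technical.

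The named genes with the most similar profile were found by Pearson's r of log2(CPM + 0.5) over the 12 apex libraries, as a description. The libraries share the 4 groups, so any gene high in eop055 at 5 weeks scores well. LFY was nearest to AT5G60760 (r = 0.966), the transcription factor gene ERF12 (0.965), the transporter gene SULTR3;2 (0.958), TEL2 (0.956) and the MADS-box gene AGL71 (0.955), and these were also ranks 1 to 5 among all 21274 other genes. AP1 was nearest to PI (0.990), REM22 (0.990), AGL71 (0.986), the sepal and floral meristem gene SEP4 (0.984) and the sugar transporter gene SWEET10 (0.976), a profile set mostly by the 3 libraries in which AP1 is not near 0. FD was nearest to SPL5 (0.973), SPL9 (0.965), AT1G22160 (0.957), AGL6 (0.949) and AT3G53140 (0.949), with 14 unnamed genes ranked above the last of these. Among the 3 genes themselves r was 0.934 for LFY with AP1, 0.803 for LFY with FD and 0.931 for AP1 with FD. With Spearman's rho in its place 2 of the 5 named genes for LFY, 0 for AP1 and 0 for FD stayed among the nearest 5.

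**Figure D4:**
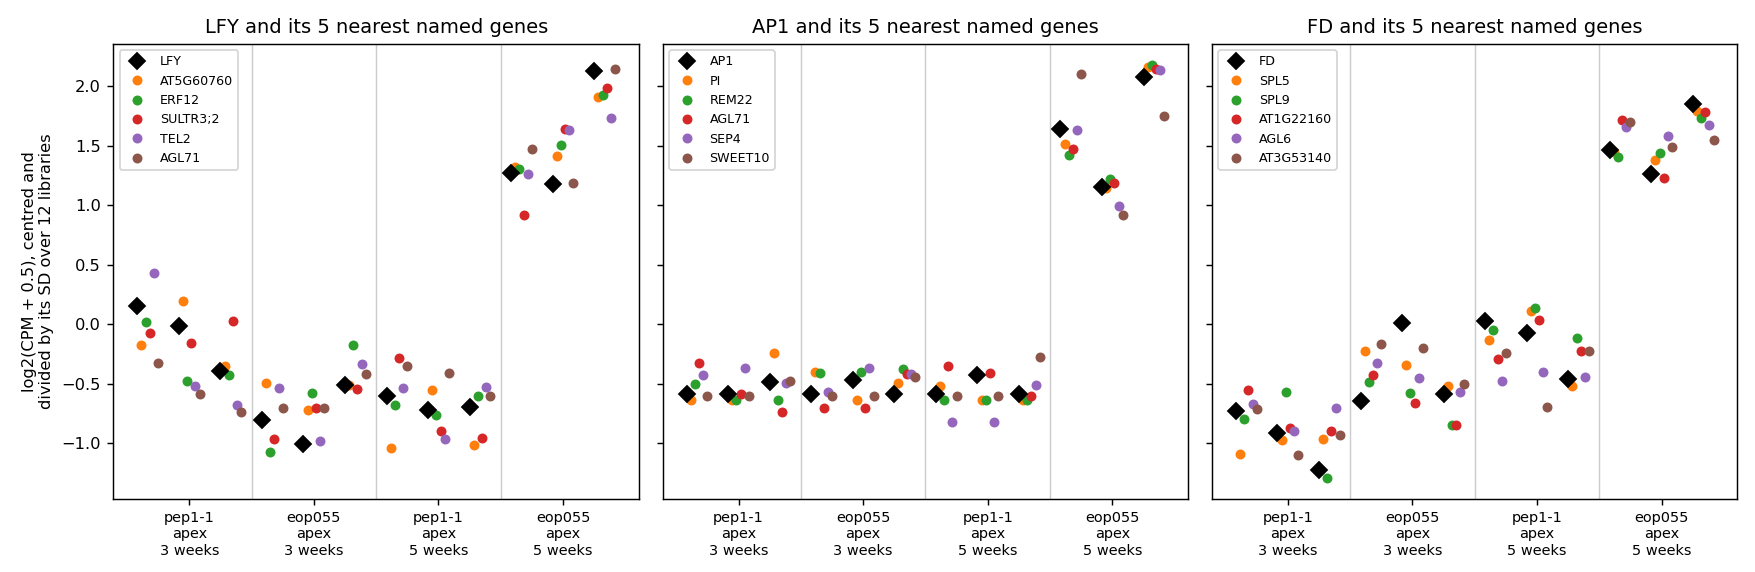
Profiles over the 12 apex libraries of LFY, AP1 and FD (diamonds) and the 5 named genes nearest to each (circles), as log2(CPM + 0.5) centred and divided by its SD. All profiles are highest in the 3 libraries of eop055 apices at 5 weeks, and the diamonds of LFY lie lower in pep1-1 at 5 than at 3 weeks while those of FD lie higher.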

How the data were processed

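Per the labels' protocols, the 18 libraries were strand-specific, from poly(A) RNA, and read from 1 end over 100 bases. The deposited table holds raw read counts per gene, 34220 genes and 5 summary rows. The summary rows were left out of library sizes; reads in no gene were 7.76% to 16.6% and ambiguous reads 2.01% to 3.60% of the reads. STAR, HTSeq 0.5.4p1, DESeq and DESeq2 are named in the submitters' processing notes, without their role. The genome build, annotation and strand setting are not stated, so reads of overlapping or antisense genes may be mixed. The authors' deposited lists of changed genes also hold group means of scaled counts (a signal), a fold ratio, its log2 value and an adjusted p-value. Only their gene names and Arabidopsis loci were used.

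Counts were tested with edgeR 4.0.16 (R 4.3.3): genes were kept by filterByExpr (21275 of 34220), scaled by TMM (factors of 1.15 to 1.27 in apices and 0.651 to 0.730 in leaves), and fitted with 6 group means in robust quasi-likelihood F tests, adjusted over all tested genes by Benjamini-Hochberg, with calls at 0.05. The 9 comparisons were between mutants, ages and tissues, and between those differences. The SE is the log2 change over the square root of F. Where a group held 1 to 3 reads the ratio of summed reads has an exact 95% interval (Clopper-Pearson), and at 0 a bound from 3 counts over the group. Other settings tried were scaling by RLE or by the upper quartile, omitting the filter, at least 10 counts in 3 libraries, DESeq2 1.42.0, fits of only the groups compared, a replicate block and each library left out. The fitting code was tested on simulated data. The test of a difference between differences recovered small changes less often there than the comparison of 2 groups, below the recovery first required of it, and that requirement was set to larger changes after this was seen.

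The 3 genes and the lists around them were chosen with earlier results of these data known. Named were the 3 genes, listed regulators that carry a locus and were called in at least 1 comparison, and for each of the 3 the 5 genes with a locus of highest r. SEP3, which was not tested, is named outside that rule. The counts of listed genes without single libraries of the 5-week apices were added after seeing the data. No sequences are shown.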

Additional observations from a re-analysis of the deposited data

Results flagged for a closer look

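A difference between the mutants that itself changed with age was found for LFY and FD. The log2 difference of eop055 from pep1-1 in apices was larger at 5 than at 3 weeks by 3.07 ± 0.366 for LFY (adjusted p = 2.97e-05, edgeR) and by 0.87 ± 0.236 for FD (adjusted p = 0.0174). For LFY all 3 eop055 libraries lay below the pep1-1 libraries at 3 weeks and above them at 5 weeks, as for 2.28% of the genes tested. For FD all 3 lay above them at both ages, as for 13.6% of genes at 3 weeks and 15.4% at 5 weeks. Neither difference passed at 3 weeks (adjusted p = 0.159 for LFY and 0.161 for FD, edgeR). The call for FD was lost when any of 4 libraries was left out. Both changes of the difference with age rest on the eop055 apices at 5 weeks. LFY and FD were named from the authors' list of genes higher in those apices, so these changes and their p-values are descriptions. Replicate 3 there was the highest library for both genes. Without it the changes were 2.70 and 0.72.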

How the results depend on the processing

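Of 284 values of 20 results for LFY, AP1 and FD under the alternatives, 276 kept their direction and their side of the threshold. None changed direction. The contrasts at 5 weeks that named the genes are among the 20. So are bounds against leaves without reads, which could not change direction. The change of the AP1 difference with age was followed by its adjusted p alone. With only the groups compared in the fit, LFY passed between the mutants at 3 weeks (log2 difference -0.74) and with age in pep1-1 (-0.63), and the genes called were 1712 in apices at 3 weeks, against 783, and 3424 in leaves, against 5661. The cause was not tested. With each library left out, LFY with age in pep1-1 gave -0.78 to -0.51, the change of the FD difference with age 0.72 to 1.05, and the genes called in apices at 3 weeks 359 to 592, a range below 783 that has fewer libraries in the fit. The change of the AP1 difference with age passed in DESeq2 (adjusted p = 0.0070), and with a library left out its adjusted p was 0.144 to 0.993. The replicate block ended no call of the 3 genes. Among the listed genes it called TEM1 lower in eop055 apices at 5 weeks and ended the call of AGL6 with age in pep1-1. Libraries with the same number did not deviate together (r of -0.177 to 0.0626 over 21 pairs). In 8 of 21 cases a library correlated best with its own number. No pairing by number was thus seen, and the labels do not state whether there was any. The block gave log2 values of -0.76 for LFY and 0.47 for FD between the mutants at 3 weeks. Of the 5 nearest named genes, the 18 libraries kept 2 for LFY, 3 for AP1 and 1 for FD. In the apex groups other than eop055 at 5 weeks AP1 had 1 read per group, so its level there is known only within counting error.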
